A study of Saccharomyces cerevisiae with 12 samples.

Results

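The 9 genes described here are ZNF1 (YFL052W), its neighbour YFL051C, and 7 genes of the maltose loci of budding yeast, Saccharomyces cerevisiae: MAL11 (YGR289C), MAL12 (YGR292W), MAL13 (YGR288W), MAL31 (YBR298C), MAL32 (YBR299W), MAL33 (YBR297W) and IMA1 (YGR287C). They were taken by identifier from a table of 7127 features. All 9 passed the filter on low counts, which left 6157 genes for testing. RNA sequencing libraries came from 12 cultures in 4 groups of 3 biological replicates: the NTT1 strain with 5 mM ATP in the medium for 1 h, the NTT1 strain without ATP, the wild type with the same ATP treatment, and the wild type without ATP. The NTT1 strain has PH-NTT1 integrated at a genomic locus in a BY29034 background and also carries the QUEEN reporter, a fluorescent sensor of ATP. NTT1 is a nucleotide transporter of Encephalitozoon cuniculi, a parasite that takes nucleotides from its host cell. The wild type carries an empty vector, and its 6 libraries each have a strain name of their own, from BY29034 to BY29039. Whether these names stand for different isolates is not clear from the labels. Strain comparisons therefore cover the transporter, the reporter and any difference between the named strains together. Treated and untreated wild-type libraries differ in these names too, so the ATP contrast in wild type and the interaction also cover any such difference. Cultures were in mid-log growth in complete synthetic medium.

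In yeast, the MAL loci hold the genes for growth on maltose, a disaccharide of glucose. Each complete locus has a permease that carries maltose in with protons, a maltase that splits it to glucose, and an activator that switches both on when maltose is present. Glucose represses them, largely through the repressor Mig1 and the kinase Snf1. ZNF1 encodes a zinc cluster transcription factor known for its part in growth on non-fermentable carbon sources, and YFL051C encodes an uncharacterised protein.

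ZNF1 is related in sequence to the MAL activators, and the coding stretch for the zinc cluster shows how closely. The alignment of its coding sequence covered 1079 bases with MAL33 at 74.2% identity, 1050 bases with MAL13 at 73.6%, and 1077 bases with YPR196W, a further relative outside the 9 genes, at 72.5%. The stretches below are coding DNA of RefSeq assembly R64, the build named in the submitters' processing notes, with the 6 cysteine codons that hold the zinc ions in capitals.
ZNF1: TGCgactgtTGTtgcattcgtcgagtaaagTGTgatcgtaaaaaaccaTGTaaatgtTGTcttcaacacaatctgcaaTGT
MAL33: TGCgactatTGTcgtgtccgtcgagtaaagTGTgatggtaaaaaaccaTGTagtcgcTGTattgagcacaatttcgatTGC
MAL13: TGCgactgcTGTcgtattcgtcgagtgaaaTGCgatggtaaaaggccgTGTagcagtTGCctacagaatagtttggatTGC
YPR196W: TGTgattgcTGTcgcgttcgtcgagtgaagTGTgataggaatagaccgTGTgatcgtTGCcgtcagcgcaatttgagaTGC
Over these 81 bases, ZNF1 matched MAL33 at 63, YPR196W at 59 and MAL13 at 58 positions.

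The maltases MAL12 and MAL32 are a near-identical pair, which limits what a count for either one means. Their coding sequences have 1755 bases each and differ at 8 of them, with a run of 492 identical bases from position 421 to 912. The stretch from base 169 to 258 holds 3 of the 8 differences, in capitals, which are C222T, T249C and T258C, counted from the first coding base and written from MAL12 to MAL32.
MAL12: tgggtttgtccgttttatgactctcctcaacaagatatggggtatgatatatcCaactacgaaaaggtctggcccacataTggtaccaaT
MAL32: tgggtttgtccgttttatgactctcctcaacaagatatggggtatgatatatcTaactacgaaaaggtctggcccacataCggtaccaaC
A read that touches none of the 8 positions matches both genes, and how such reads were counted is not given in the sources used here. Both genes had few counts, 39 to 149 per library for MAL12 and 31 to 107 for MAL32. The isomaltase copies IMA3 and IMA4, with identical coding sequences of 1770 bases, had, for IMA3, 0 counts in all 12 libraries and, for IMA4, 0 to 2 counts per library. A count of 0 allows up to 3 counts in that library, for counting error alone. This bound does not cover reads that match both copies, so low counts of IMA3 and IMA4 need not mean low levels. The other members are less alike. MAL11 and MAL31 aligned over 388 bases at 73.5%, MAL13 and MAL33 over 1057 bases at 74.6%, and IMA1 was 89.2% identical to IMA2. YFL051C matched only short stretches of the flocculin genes FLO1, FLO5 and FLO9, each 69 bases at 84.1%, and FLO10.

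The genes lie in 3 blocks. ZNF1 (chrVI:28232-29629, plus strand) and YFL051C (chrVI:30058-30540, minus strand) point towards each other across 428 bases. On chromosome II, MAL33 (chrII:800523-801929) converges on the permease gene MAL31 (chrII:802631-804475), which diverges from the maltase gene MAL32 (chrII:805351-807105) across 875 bases. On chromosome VII, IMA1 (chrVII:1067222-1068991) diverges from MAL13 (chrVII:1070293-1071714), and MAL11 (chrVII:1073963-1075813) diverges from MAL12 (chrVII:1076599-1078353) across 785 bases. Each gene has 1 coding exon. Whether reads were counted by strand is not given, so reads from the facing ends of ZNF1 and YFL051C cannot be assigned with certainty where the transcripts run into each other.

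Library totals ran from 14845855 to 20714804 counts. The mean count per library was 995 for MAL31, 451 for MAL13, 387 for MAL11, 192.5 for MAL33, 186.5 for IMA1, 163.5 for ZNF1, 68.3 for MAL12, 61.7 for MAL32 and 54.2 for YFL051C, and values of the last 3 rest on few counts. Untreated wild-type replicate 3 stood apart from the other untreated wild-type libraries. The summed level of the 9 genes was 154 CPM (counts scaled to library size, with TMM normalisation) in it, against 292 and 251 CPM in replicates 1 and 2. The members' results that rest on it are also given without it. It was set apart here by the members' own levels. Results without it therefore describe how far they depend on it and are not separate support. RNA of a whole culture was measured, so a lower level in every cell and a lower share of expressing cells cannot be told apart.

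With ATP, all 9 genes had lower fitted levels than without ATP, in both strains. In the NTT1 strain, MAL11, MAL31, MAL13 and YFL051C passed the test, and ZNF1 lay at the threshold. ZNF1 and YFL051C were noticed first for their fitted falls in wild type, and the maltose genes were grouped with them when these results were known. The ATP values in wild type are therefore described without a test. The test was run on the NTT1 contrast, whose group means do not use the wild-type libraries. It is not fully independent of the choice of members. All 12 libraries share 1 estimate of spread in the fit, and the members were chosen with earlier results of these data known. In NTT1, 4 of the 9 genes were called at an adjusted p under 0.05 in edgeR's quasi-likelihood test, all 4 lower, where 1.49% of the 6157 genes were called lower. In 8 of the 9 the CPM of the treated libraries lay below that of all untreated ones, against 17.7% of all genes. The median log2 fold change of the 9 genes was -0.73 in NTT1, where the median of all genes was -0.0029, and -1.29 in wild type, where it was 0.0027. In wild type the treated libraries lay below all untreated ones for all 9 genes, as they did for 13.7% of all genes, and nothing is read from that count because this contrast entered the choice of members. Without untreated wild-type replicate 3, the fitted differences in wild type ran from -3.86 for YFL051C and -3.41 for ZNF1 to -1.03 for MAL13, with a median of -1.55.

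**Figure D1:**
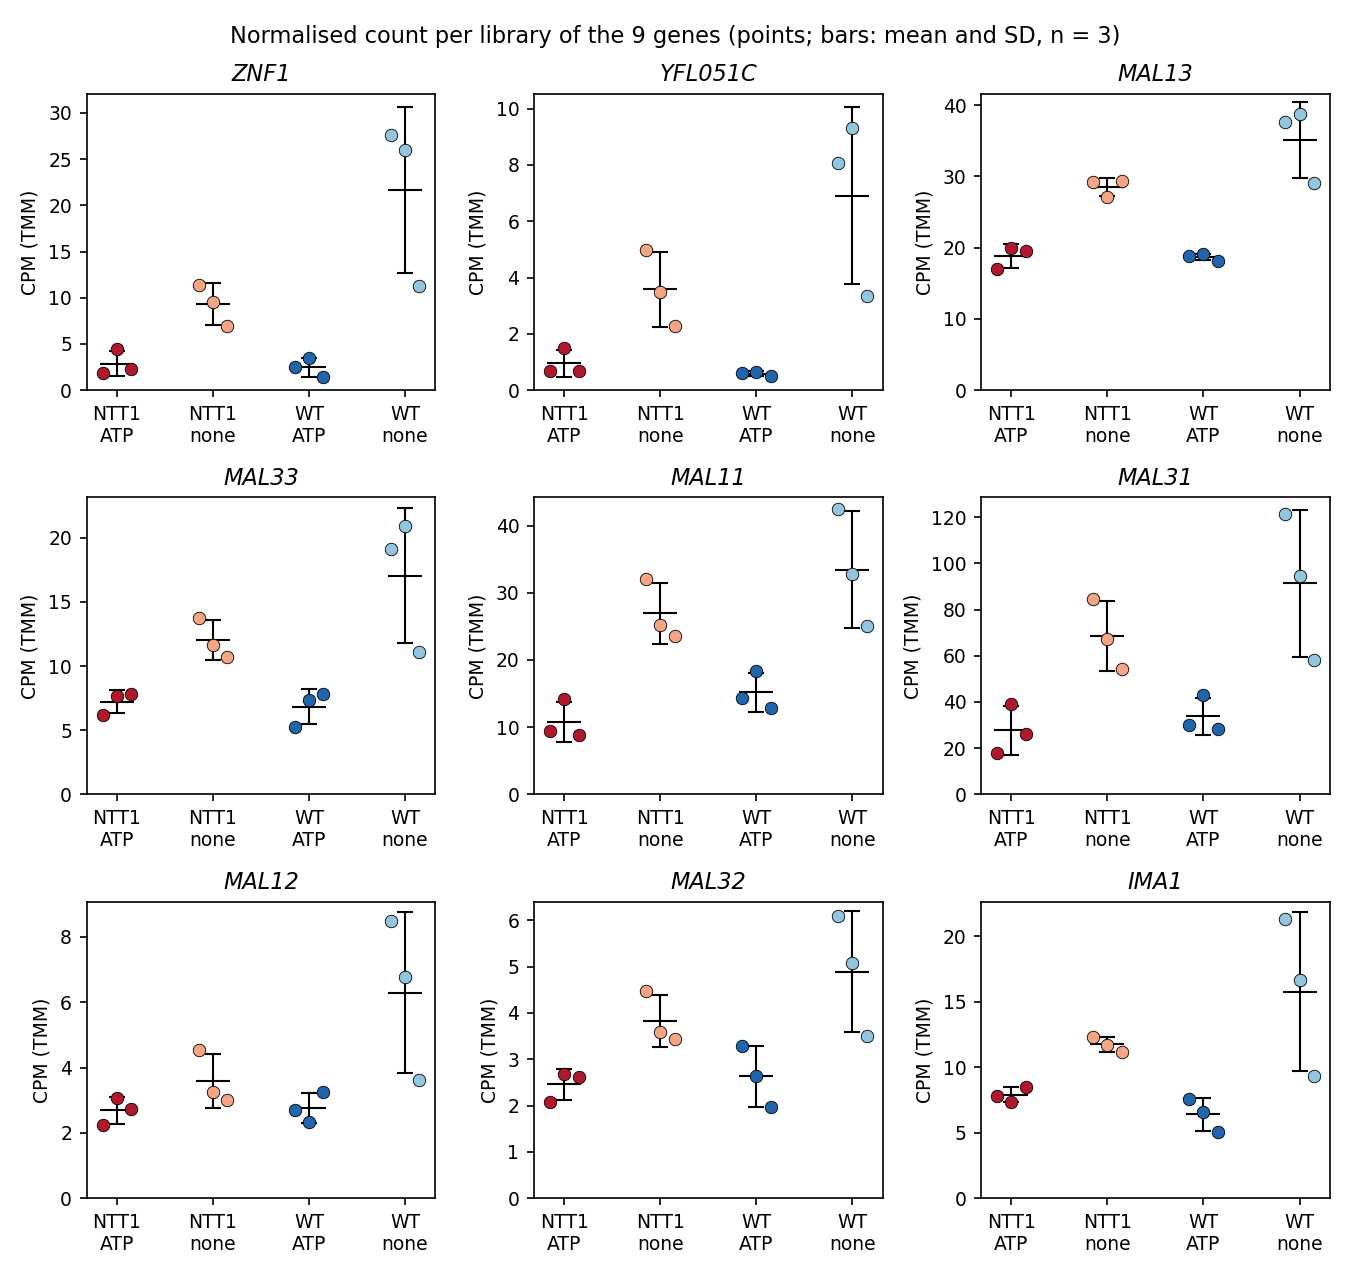
Level of each of the 9 genes (CPM, TMM-scaled, each vertical axis from 0) in the 12 libraries, grouped by strain and treatment. Points are libraries, and bars give the mean and SD of 3. In wild type the treated libraries lie below all untreated ones for all 9 genes, and in NTT1 for all but MAL12.

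ZNF1 had the widest range of levels of the regulators. It had 1.90, 4.47 and 2.28 CPM in treated NTT1 libraries, against 11.4, 9.57 and 6.98 CPM in untreated ones. Treated replicate 2 was the highest of the treated libraries and still lay below all untreated ones. The log2 fold change was -1.66 (SE 0.42), which is 31.6% of the untreated level, and the edgeR adjusted p was 0.0502, just outside the threshold. In wild type, ZNF1 had 2.45, 3.50 and 1.46 CPM with ATP, against 27.6, 26.04 and 11.3 CPM without ATP. The groups did not overlap, and untreated replicate 3 lay well below the other untreated libraries. The fitted log2 fold change in wild type was -3.10 (SE 0.42), or 11.6% of the untreated level.

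The MAL activator genes MAL13 and MAL33 had lower levels with ATP as well, by less. Whether their products work as activators in these strains was not tested. MAL13 fell to 17.0, 19.996 and 19.6 CPM in treated NTT1, against 29.2, 27.1 and 29.3 CPM in untreated NTT1. The replicates were close and the groups did not overlap, with a log2 fold change of -0.60 (SE 0.11, edgeR adjusted p 0.0129). MAL13 had 18.1 to 19.1 CPM in treated wild type, against 29.0 to 38.8 CPM in untreated wild type, a fitted difference of -0.91 (SE 0.11). MAL33 had 6.16, 7.69 and 7.84 CPM in treated NTT1, against 13.7, 11.7 and 10.7 CPM in untreated NTT1. These groups did not overlap either, but the log2 fold change of -0.73 (SE 0.23) missed the threshold, at an edgeR adjusted p of 0.0974. In wild type, MAL33 had 5.27 to 7.83 CPM with ATP, against 11.1 to 20.9 CPM without, a fitted difference of -1.32 (SE 0.23).

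YPR196W, the related regulator gene that lies on chromosome XVI, gave a contrasting pattern. It had 16.7, 17.1 and 15.7 CPM in treated NTT1, against 15.4, 15.2 and 16.6 CPM in untreated NTT1. The groups overlapped, and the log2 fold change was 0.07 (SE 0.09, edgeR adjusted p 0.674). In wild type it was 0.13 (SE 0.09, adjusted p 0.388). Per kb of coding length, the log2 ratio of ZNF1 to YPR196W was -2.61 ± 0.62 in treated NTT1 and -0.76 ± 0.42 in untreated NTT1 (SD, n = 3 each). That of MAL13 to YPR196W was 0.18 ± 0.15 in treated NTT1 and 0.85 ± 0.06 in untreated NTT1. The ranges of treated and untreated libraries did not overlap for either ratio, and with 3 libraries a side an exact two-sided test could not give a p below 0.1.

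**Figure D2:**
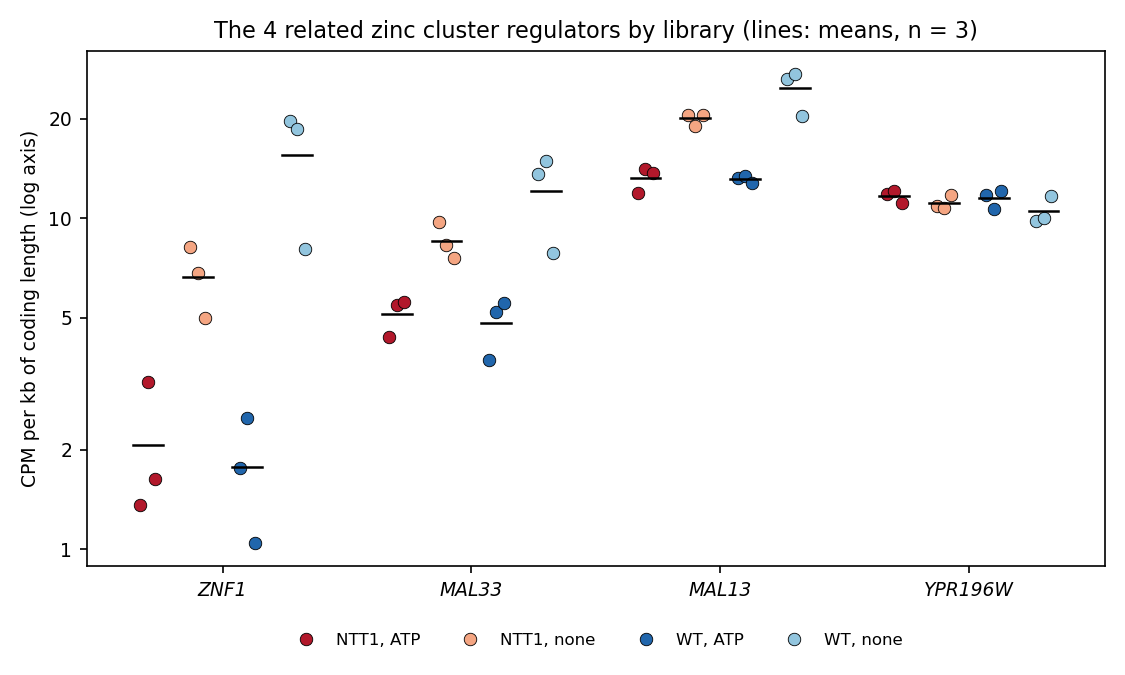
Level per kb of coding length (CPM per kb, log axis) of the 4 related zinc cluster regulator genes in each library, with lines at the means of 3. The treated libraries of ZNF1, MAL33 and MAL13 lie below the untreated ones of the same strain, while YPR196W stays between 9.79 and 12.1 CPM per kb in all 12 libraries.

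The windows before ZNF1 and MAL33 are shown because they hold the most matches to a glucose repression motif among the 9 genes. Each runs from 250 bases before the first coding base to 50 bases from it, 5′ to 3′ on the gene's strand, in assembly R64. Capitals mark the Mig1 hexamer GCGGGG with its variant GTGGGG, its variant CCGGGG and its variant CTGGGG, and the stress response element AGGGG, each searched on both strands. The ZNF1 window is chrVI:27982-28281 and the MAL33 window is chrII:800273-800572, both on the plus strand.
ZNF1: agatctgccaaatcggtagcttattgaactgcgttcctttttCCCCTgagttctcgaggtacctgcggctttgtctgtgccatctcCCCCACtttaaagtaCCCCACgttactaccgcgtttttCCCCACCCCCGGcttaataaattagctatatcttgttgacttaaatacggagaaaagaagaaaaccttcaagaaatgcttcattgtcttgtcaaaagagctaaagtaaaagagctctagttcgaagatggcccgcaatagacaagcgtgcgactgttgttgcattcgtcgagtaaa
MAL33: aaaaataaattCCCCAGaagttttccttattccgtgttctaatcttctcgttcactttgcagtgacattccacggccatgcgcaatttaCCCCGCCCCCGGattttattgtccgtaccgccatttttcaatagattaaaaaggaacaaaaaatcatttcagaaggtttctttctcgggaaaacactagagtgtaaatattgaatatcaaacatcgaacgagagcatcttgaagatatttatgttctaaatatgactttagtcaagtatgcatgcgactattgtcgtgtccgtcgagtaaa
The hexamers matched 4 times before ZNF1, at -164, -149, -126 and -120, and 3 times before MAL33, at -239, -161 and -155, all on the minus strand. Matches to different hexamers do not share bases here. MAL13 and IMA1 had 1 match each, so 4 of the 9 windows held one, as did 11.6% of 6020 windows of the same length before protein-coding genes. The stress response element was found in the ZNF1 window alone of the 9, and in 21.6% of all windows. The MAL activator element, searched by its published degenerate form, was in the windows of ZNF1 and MAL33, where it overlapped the MAL33 hexamer at -161, and in 30.9% of all windows. These are matches of letters in 1 window length, not sites.

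YFL051C had a pattern across libraries close to that of ZNF1, on fewer counts. It had 0.690, 1.49 and 0.670 CPM in treated NTT1, against 4.97, 3.47 and 2.29 CPM in untreated NTT1. The groups did not overlap, and the log2 fold change was -1.86 (SE 0.47, edgeR adjusted p 0.0473). These treated levels rest on 12, 31 and 10 counts. In wild type, YFL051C had 0.599, 0.659 and 0.509 CPM with ATP, against 8.08, 9.30 and 3.34 CPM without. The lowest of them, 8 counts in treated replicate 3, has an exact Poisson interval of 3.45 to 15.8 counts at 95%, for counting error only. The fitted difference in wild type was -3.53 (SE 0.48), or 8.68% of the untreated level. The log2 ratio of ZNF1 to YFL051C per kb was 0.07 ± 0.15 in treated and -0.11 ± 0.21 in untreated NTT1 (SD, n = 3 each), and these ranges overlapped.

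Genes around the 3 blocks were read by locus number, within 5 of a member on the same arm. Of 32 such features, 25 were tested, and 0 were lower and 1 higher with ATP in NTT1 in the edgeR test (5 had an unadjusted p under 0.05, and DESeq2 called 2). Their median log2 fold change was -0.04. YBR292C was the 1 called, at 0.50 (SE 0.11, adjusted p 0.0267). Of all genes, 2.97% were called higher and 1.49% lower in NTT1. Near ZNF1 on chromosome VI, AQY3, an aquaglyceroporin-like gene, was at -0.93 (SE 0.29, adjusted p 0.0969) and DAK2, a dihydroxyacetone kinase gene, at -0.62 (SE 0.41, adjusted p 0.398). In wild type both were called in the same test, AQY3 at -1.57 (SE 0.29, adjusted p 0.0129) and DAK2 at -2.11 (SE 0.39, adjusted p 0.0129), where 7.31% of genes were called lower. With the 6 wild-type libraries fitted alone, 19 genes were called in wild type, against 784. AQY3 and DAK2 were not followed in that fit. On the other side of YFL051C, the magnesium transporter gene ALR2 had 24.2 ± 1.39 CPM in treated and 26.9 ± 1.198 CPM in untreated NTT1 (SD, n = 3 each), at an adjusted p of 0.358. YGR290W, numbered next to MAL11, was at -1.02 and was not called (adjusted p 0.137), on 14 to 53 counts per NTT1 library.

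**Figure D3:**
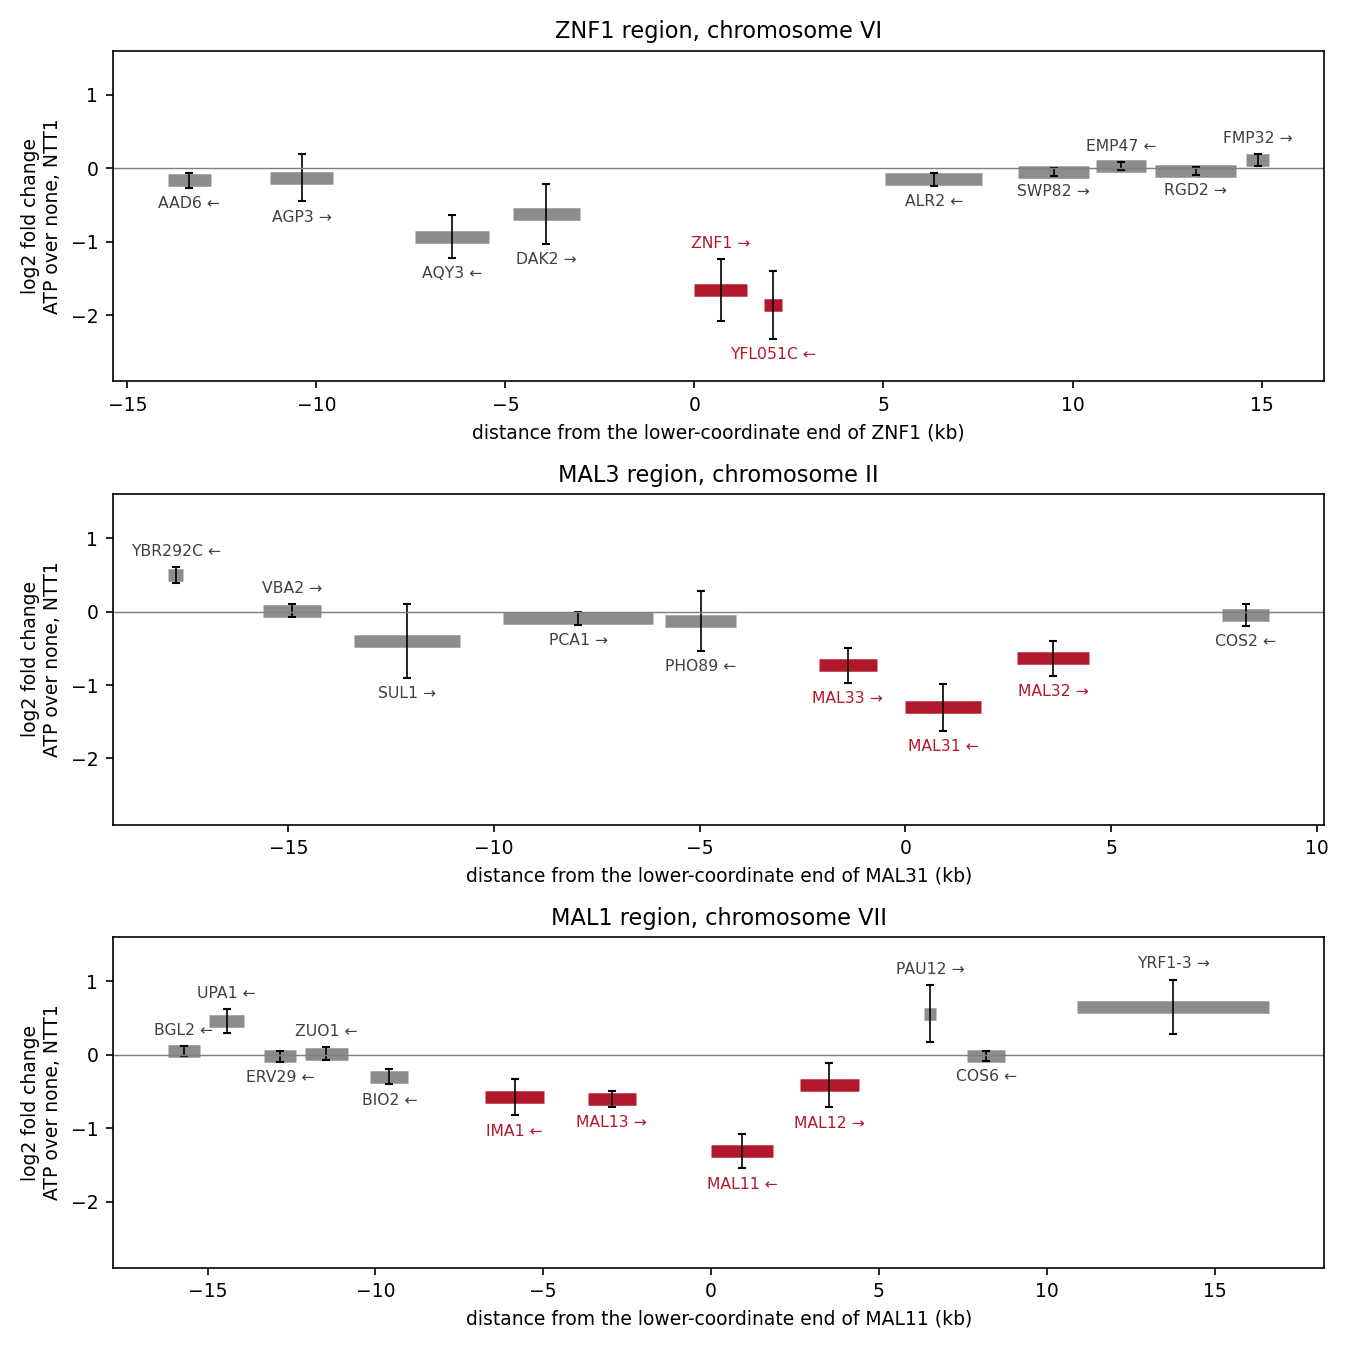
Fitted log2 fold change of ATP over none in the NTT1 strain for the members (red) and the tested neighbours in the RefSeq table (grey), against distance in kb from the lower-coordinate end of ZNF1, MAL31 and MAL11. Bar length is the gene, error bars are 1 SE, and arrows give the strand. The red bars lie below 0 in each panel, and most grey bars lie near 0, with AQY3 at -0.93 and DAK2 at -0.62.

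The permease genes had the largest fitted differences of the 7 maltose genes in NTT1. MAL31, which encodes the maltose permease of its locus, had 17.9, 39.1 and 26.1 CPM in treated NTT1, against 84.5, 67.3 and 54.3 CPM in untreated NTT1. It fell by 1.30 on the log2 scale (SE 0.32, edgeR adjusted p 0.0435), and the groups did not overlap. MAL11, also called AGT1, encodes a permease for a broader range of alpha-glucosides. It had 9.38, 14.1 and 8.77 CPM in treated NTT1, against 32.0, 25.2 and 23.5 CPM in untreated NTT1, again without overlap, and fell by 1.31 (SE 0.23, edgeR adjusted p 0.0126). In wild type, MAL31 had 28.4 to 43.0 CPM with ATP and 57.9 to 122 CPM without, and MAL11 had 12.9 to 18.4 CPM with ATP and 25.1 to 42.5 CPM without. The fitted differences there were -1.43 (SE 0.32) for MAL31 and -1.14 (SE 0.23) for MAL11. The log2 ratio of MAL11 to MAL31 per kb was -1.33 ± 0.34 in treated and -1.35 ± 0.12 in untreated NTT1 (SD, n = 3 each), and these ranges overlapped.

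The genes for the enzymes that split the sugars were lower with ATP in NTT1 without passing the test. IMA1, an isomaltase gene, had 7.35 to 8.51 CPM in treated NTT1, against 11.2 to 12.3 CPM in untreated NTT1, at -0.58 (SE 0.25, edgeR adjusted p 0.205). MAL32 had 2.07 to 2.69 CPM in treated NTT1, against 3.43 to 4.48 CPM in untreated NTT1, at -0.64 (SE 0.24, adjusted p 0.152). MAL12 had 2.24 to 3.08 CPM in treated NTT1, against 3.00 to 4.53 CPM in untreated NTT1, at -0.41 (SE 0.30, adjusted p 0.451), and was the 1 member whose groups overlapped. None of the 3 was called. Since MAL12 and MAL32 cannot be told apart over most of their length, their counts were also summed, and the sum was at -0.53 with an adjusted p of 0.236. In wild type the fitted differences were -1.29 (SE 0.25) for IMA1, -1.197 (SE 0.29) for MAL12 and -0.89 (SE 0.23) for MAL32.

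**Figure D4:**
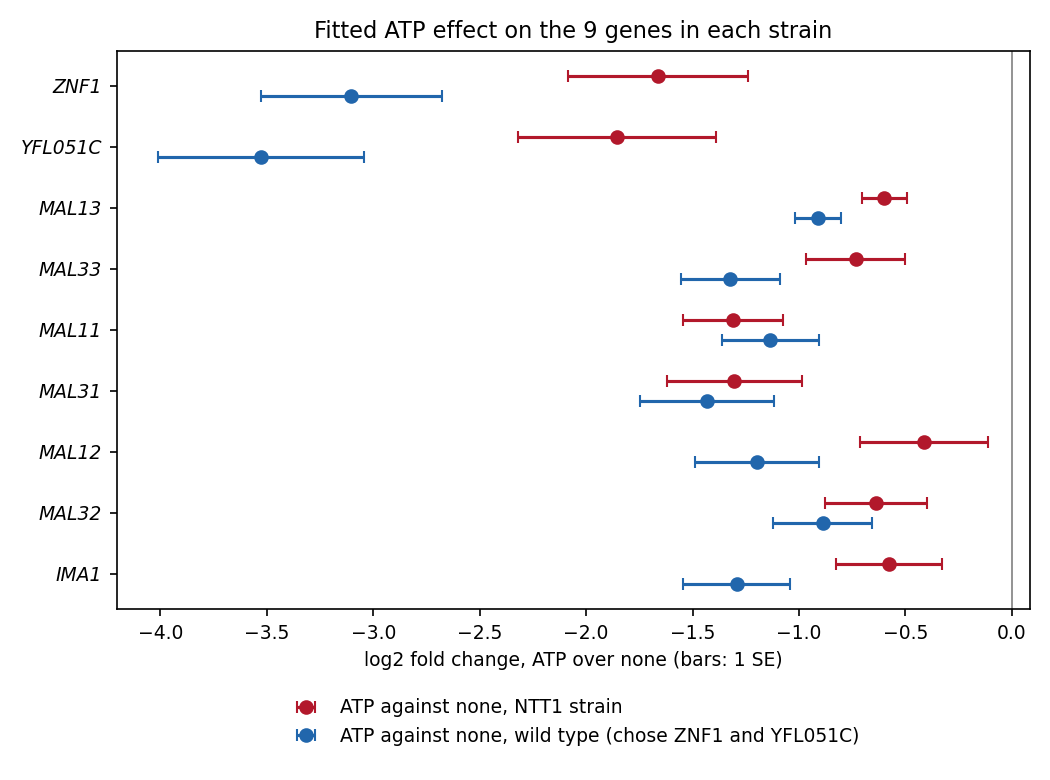
Fitted log2 fold change of ATP over none for the 9 genes in the NTT1 strain (red, upper point of each pair) and in wild type (blue, lower point), with bars of 1 SE. All 18 points lie below 0, from -0.41 for MAL12 in NTT1 to -3.53 for YFL051C in wild type.

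Per kb of coding length, MAL31 had the highest mean level of the 9 genes in every group, with 15.02 ± 5.78 CPM per kb in treated and 37.2 ± 8.21 in untreated NTT1, and 18.3 ± 4.34 in treated and 49.5 ± 17.3 in untreated wild type (SD, n = 3 each). MAL13 was next in all 4 groups, and its range overlapped that of MAL31 in treated NTT1. MAL12 and MAL32 were the lowest pair in both untreated groups, with overlapping ranges. How reads that match both genes were counted is not given, so the place of this pair in the order is uncertain. ZNF1 took place 4 in untreated wild type, at 15.5 ± 6.43 CPM per kb, with overlap to its neighbours in the order MAL11 and YFL051C. It took place 6 in both treated groups, at 2.06 ± 0.99 CPM per kb in NTT1 and 1.77 ± 0.73 in wild type. In untreated NTT1 its place was also 6, at 6.67 ± 1.59 CPM per kb, with overlap to YFL051C and IMA1. Its place in NTT1 was thus the same with and without ATP.

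All 9 genes stayed lower with ATP in NTT1 in each of the 19 alternatives tried. In 12 of these 1 library was left out, which could hardly turn the sign where ranges did not overlap. The number of members called for ATP in NTT1 moved with the libraries in the fit. It was 7 without untreated wild-type replicate 3 and also 7 when no wild-type library entered the model, and in both cases ZNF1, MAL33 and IMA1 were added to the 4. The count over all genes was higher in these fits too, at 1030 and 950 genes, against 275 with all 12 libraries. The count of members was 2 without any 1 of the treated wild-type replicates 1, 2 and 3 or of the untreated NTT1 replicates 1 and 2. These fits called 69 to 222 of all genes. The count of members was 1 without treated NTT1 replicate 3 and 0 without treated NTT1 replicate 1, where 88 and 85 of all genes were called. MAL13 was called in 18 of the 19 alternatives, MAL11 in 17, MAL31 in 11, YFL051C in 10 and ZNF1 in 9.

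Without ATP, the 9 genes had lower fitted levels in NTT1 than in wild type, and none passed the test. The log2 differences ran from -1.22 (SE 0.37) for ZNF1 to -0.30 (SE 0.11) for MAL13. In edgeR, 0 of the 9 were called, where 0.0487% of all genes were called, 0.0162% lower and 0.0325% higher. An unadjusted p under 0.05 in edgeR was found for 5 of the 9, and for 597 of the 6157 genes. DESeq2 called 0 members. The CPM ranges overlapped for all 9, while in 5.13% of all genes NTT1 lay wholly below wild type. ZNF1, for one, had 11.4, 9.57 and 6.98 CPM in untreated NTT1, against 27.6, 26.04 and 11.3 CPM in untreated wild type, so that replicate 3 of wild type lay within the NTT1 range. Without that library, 6 of the 9 genes were called lower in NTT1, with ZNF1 at -1.52 (edgeR adjusted p 0.0114) and YFL051C at -1.28 (adjusted p 0.0196), together with MAL12, MAL13, MAL33 and IMA1. In that fit 602 of all genes were called in either direction, against 3 with all 12 libraries. The share of all genes called lower in that fit is not given. The library left out had the lowest summed level of the members among the untreated wild-type libraries. Leaving it out raises the wild-type side for them, so nothing is read from these calls. The strain comparison without ATP also shares the untreated wild-type libraries with the contrast that drew attention to ZNF1 and YFL051C. It is therefore not independent of the choice of members.

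With ATP, no member passed the test between the strains. The log2 differences of NTT1 from wild type ran from -0.49 (SE 0.24) for MAL11 to 0.72 (SE 0.61) for YFL051C, and 4 of the 9 were lower in NTT1. In edgeR, 0 of the 9 were called and 0 had an unadjusted p under 0.05, DESeq2 called 0, and 0.065% of all genes were called, 0.0487% lower and 0.0162% higher. MAL13 had 18.8 ± 1.64 CPM in treated NTT1 and 18.7 ± 0.48 CPM in treated wild type (SD, n = 3 each), and ZNF1 had 2.88 ± 1.39 and 2.47 ± 1.02 CPM in the same groups. YFL051C was the 1 gene whose ranges did not overlap. It had 0.670 to 1.49 CPM in treated NTT1, against 0.509 to 0.659 CPM in treated wild type. These levels rest on 10 to 31 and 8 to 13 counts per library, and the share of all genes wholly higher in NTT1 was not computed. The treated wild-type libraries also entered the contrast that drew attention to ZNF1 and YFL051C. The comparison is therefore not independent of the choice of members. In 0 of the 9 did NTT1 lie wholly below wild type, as 7.97% of all genes did.

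Whether the ATP effect differed between strains was tested by the interaction, as the log2 ATP effect of NTT1 less the wild-type one. It was 1.44 (SE 0.60, unadjusted p 0.0349, adjusted p 0.829 in edgeR) for ZNF1 and 1.67 (SE 0.71, unadjusted p 0.0391, adjusted p 0.829) for YFL051C, the only members with an unadjusted p under 0.05. It ran from -0.18 for MAL11 to 0.78 for MAL12 among the maltose genes. In edgeR, 0 members and 0 of all genes passed, and DESeq2 called 0 members. At an unadjusted p under 0.05 there were 365 genes. Without untreated wild-type replicate 3, 106 of all genes passed and 0 members, with ZNF1 at 1.75 (edgeR adjusted p 0.0861) and YFL051C at 2.00 (adjusted p 0.0834). The wild-type side of this contrast chose ZNF1 and YFL051C, and the smaller fall of both in NTT1 is not shown to differ from that in wild type.

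Other genes of maltose use were not called. Of 7 listed, 5 were tested for ATP, and 0 were called in either strain by edgeR or DESeq2, with 0 at an unadjusted p under 0.05 in NTT1 and 1, MPH3, in wild type. IMA5 had 9.81 ± 0.17 CPM in treated and 8.76 ± 0.85 CPM in untreated NTT1 (SD, n = 3 each). The maltose permease relatives MPH2 and MPH3, on 9 to 57 counts per NTT1 library, were at -0.33 (SE 0.31) and -0.47 (SE 0.26), and IMA2 was at -0.33 (SE 0.24).

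Among 14 other sugar genes that glucose represses, 13 were tested, and 3 were lower and 0 higher with ATP in NTT1 by edgeR, with a median of -0.21. The 3 were the high-affinity hexose transporter genes HXT7, at -1.51 (SE 0.31, adjusted p 0.0241), and HXT6, at -1.37 (SE 0.31, adjusted p 0.0338), which are near-identical copies and so uncertain, and the galactose gene GAL7, at -0.93 (SE 0.21, adjusted p 0.0327). In wild type 7 were lower and 0 higher, with a median of -0.55. Of 15 regulators of glucose repression, edgeR called 1 higher and 0 lower in NTT1. The fitted value was below 0 for 10 of the 15, 8 had an unadjusted p under 0.05, and DESeq2 called 4. Over all 6157 genes, 1339 had an unadjusted p under 0.05 in edgeR, and DESeq2 called 583. The 1 called by edgeR was TUP1, which encodes a general corepressor, with 95.1 CPM in treated and 49.3 CPM in untreated NTT1, at 0.95 (SE 0.22, adjusted p 0.0357). TUP1 was also called higher in wild type, at 0.84 (SE 0.22, adjusted p 0.0328), and 4 regulators were called lower there: HXK2, MTH1, CAT8 and ADR1. Over all genes, the wild-type calls numbered 784 in this fit and 19 with the 6 wild-type libraries fitted alone. The genes named here were not followed in that fit. Of all genes, 2.97% were called higher and 1.49% lower in NTT1, and 5.42% higher and 7.31% lower in wild type.

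Genes for non-fermentable carbon, the field in which Znf1 is known to act, went both ways. Of 11 tested in NTT1, 1 was lower, MDH2 (cytosolic malate dehydrogenase), at -0.84 (SE 0.16, adjusted p 0.0133), and 1 higher, ADH2 (the alcohol dehydrogenase that oxidises ethanol), at 0.70 (SE 0.14, adjusted p 0.0215). In wild type, 3 were lower, MDH2, ICL1 and FBP1, and 1 higher, ADH2. The shares of all genes called were 1.49% lower and 2.97% higher in NTT1, and 7.31% lower and 5.42% higher in wild type. PCK1, a gluconeogenic gene, was at 0.08 in NTT1 (adjusted p 0.788). Of the 5 flocculin genes, which share short stretches with YFL051C, 1 was called in NTT1, FLO11, higher at 1.14 (SE 0.25, adjusted p 0.0279), and 0 in wild type by edgeR, where 0 had an unadjusted p under 0.05 and DESeq2 called 0.

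The levels of the 9 genes were correlated across libraries. Pearson's r of log2 CPM over the 12 libraries ran from 0.798 to 0.981 in the 36 pairs, with a median of 0.911. This is a description, since the libraries share their treatments and include the wild-type ones by which ZNF1 and YFL051C were chosen. Over the 6 NTT1 libraries alone, r ran from 0.703 for MAL12 with IMA1 to 0.993 for MAL32 with MAL33. It was 0.991 for ZNF1 with YFL051C, and these libraries too differ in treatment. Among 5921 other genes with a mean of at least 20 counts, the 5 most like ZNF1 by the same measure over 12 libraries were MSS11 (r 0.983), GPT2 (0.973), PUF2 (0.971), COS111 (0.970) and YGR266W (0.970). Those most like YFL051C were MSS11 (0.981), YGR266W (0.980), NGK1 (0.974), GPT2 (0.968) and PUF2 (0.964). Likeness of pattern did not mean a like size. MSS11, a transcription factor gene, had 46.3 CPM in treated and 53.3 CPM in untreated NTT1, and COS111 had 26.8 CPM in treated and 90.1 CPM in untreated NTT1, at -1.74 (edgeR adjusted p 0.0267).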

How the data were processed

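RNA of 12 yeast cultures was sequenced from TruSeq RNA libraries after extraction with a Zymo kit, per the labels' protocols. The authors deposited whole-number read counts per gene. The submitters' processing notes name HISAT2 2.0.5, featureCounts 1.5.0, DESeq2 1.20.0 and build R64, with no role. Strand use and the treatment of reads that match several genes are not given in the sources used here, and both bear on MAL12, MAL32 and facing genes. All columns were matched to samples by name (0 left over), and no libraries of the same group were duplicates. Pairs of libraries from different groups were not checked for this.

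The 9 members and all gene lists were chosen with earlier results of these data known. Lists, neighbours within 5 locus numbers, and the 5 genes most like ZNF1 or YFL051C were named by rule. Likeness was Pearson's r of log2 CPM with a prior count of 2, over genes averaging at least 20 counts. Counts of all 12 libraries were filtered with filterByExpr, scaled by TMM and fitted in 1 model of 4 group means with edgeR 4.0.16 (R 4.3.3), by the quasi-likelihood F-test. The Benjamini-Hochberg adjustment ran over 6157 genes, with a threshold of 0.05. Fitted fold changes use a prior count of 0.125, and SEs were derived from the fold change and F and are approximate. CPM was computed from the deposited counts with TMM-scaled library sizes. The labels call the replicates biological. Totals of 14845855 to 20714804 counts set the counting error, and reads without molecular identifiers are not independent molecules, so intervals cover counting error only. Scripts were tested on simulated data. Alternatives were other scaling, no filter, DESeq2 1.42.0, a replicate block, similar copies summed, the 6 libraries of a comparison alone, and each library left out.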

Additional observations from a re-analysis of the deposited data

How the results depend on the processing

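All 9 genes stayed lower with ATP in both strains in each of the 19 alternatives. In 12 of these 1 library was left out, which could hardly turn the sign where treated and untreated ranges did not overlap. The wild-type contrast entered the choice of members, so nothing is read from the direction there. In the reported fit, 50.8% of all genes were lower with ATP in NTT1 and 49.3% in wild type. Members called for ATP in NTT1 were 4 in the reported fit, 4 with DESeq2's median-ratio factors, 5 with upper-quartile factors, 5 with no filter, 6 in DESeq2's test and 7 with the 6 NTT1 libraries alone, and 0 to 7 with each library left out. Genes called for ATP in NTT1 were 275, against 583 in DESeq2 and 950 with the 6 libraries alone, and 69 to 1030 with each library left out. Genes called for ATP in wild type were 784, against 19 with the 6 libraries alone and 89 to 2086 with each library left out, and the members' median there was -1.55 to -1.02. Between strains with ATP, 4 genes were called, against 12 in DESeq2 and 1 to 6 with each library left out, with 0 members throughout. Between strains without ATP, 3 genes were called, against 41 in DESeq2, 0 with the 6 libraries alone and 2 to 602 with each library left out, with 0 to 6 members. The interaction called 0 genes, against 6 in DESeq2 and 0 to 106 with each library left out, with 0 members throughout. The cause of these shifts was not tested. Deviations of same-numbered samples had r from -0.440 to 0.311, above 0.1 in 5 of 18 pairs. Those of differently numbered samples had r from -0.398 to 0.558, above 0.1 in 8 of 36 pairs. This shows no clear pairing by number, and with 3 libraries a group it cannot exclude one. The replicate block gave 5 members for ATP in NTT1, with ZNF1 added at an edgeR adjusted p of 0.0143. With similar copies summed, the sum of MAL13 and MAL33 was at -0.64 (edgeR adjusted p 0.0245) and that of MAL11 and MAL31 at -1.31 (adjusted p 0.0306). The alternatives were computed for the 9 members and the counts of calls, not for the other named genes. Low counts limit YFL051C, MAL12 and MAL32.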
